A study of Solanum lycopersicum with 17 samples.

Results

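The APETALA1/FRUITFULL clade is a group of MADS-box transcription factor genes, and 4 of its tomato members were followed here among the 34727 gene models measured in floral buds. They were taken by gene identifier: MC (MACROCALYX, Solyc05g056620), FUL1 (Solyc06g069430), FUL2 (Solyc03g114830) and MBP20 (Solyc02g089210). Each identifier matched 1 gene model in every library. RefSeq (assembly SLM_r2.1) lists genes of these names on the same chromosomes, 5, 6, 3 and 2, and their places in relative gene order differ by 1.78, 2.00, 0.716 and 0.390 percentage points from those in the deposited tables. Another gene of the clade, MBP10 (Solyc02g065730), lies outside the 4 and is described at the end of their account.

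MADS-box proteins bind DNA as complexes of several family members and set the identity of meristems and flower organs. In tomato, MC is the APETALA1-type gene: its loss gives large leafy sepals and an incomplete abscission zone in the flower stalk. FUL1 and FUL2 are FRUITFULL-type genes known for their part in fruit ripening, where their proteins act with the MADS protein RIN. MBP20 and MBP10 form the other FRUITFULL branch of the clade, and MBP20 acts with FUL2 in the change to flowering and in limiting inflorescence branching.

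The RNA came from floral buds of 2 tomato lines, the male-sterile ms1035 and the male-fertile T-1082, and was extracted with TRIzol. Both lines were sampled at 3 stages, which the labels number without defining. The sterile line has 3 libraries at each of stages 1, 2 and 3. The fertile line has replicates 2 and 3 at stage 1, whose replicate 1 is not analysed here, and 3 libraries at each of stages 2 and 3. The labels name no transgene and no treatment, and do not say whether the lines share a genetic background or whether buds of several plants were pooled, so male sterility and any other difference between the lines cannot be told apart. In bulk buds, fewer cells of a type and less RNA per cell cannot be told apart either.

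The 17 libraries held 499608 to 817548 reads assigned to genes, of which 98.7% to 99.5% were unique, and 18089 to 19320 genes had reads. A level of 3 reads corresponds to 3.67 to 6.0 CPM (counts per 1e6 reads assigned to genes in that library), so levels under that are poorly resolved. The labelled tissue was checked with 9 floral organ identity genes, all of which had reads in each of the 6 groups. Their summed level was 855 to 2261 CPM in sterile and 1145 to 3469 CPM in fertile libraries. The 6 genes listed as markers of the tapetum, the anther layer that feeds pollen, summed to 0 to 5.09 CPM in sterile libraries and to 763 to 11890 CPM in fertile libraries. Of these 6 genes 5 were called lower in sterile buds averaged over stages by edgeR, as were 6.25% of all tested genes. The names of the 6 were not matched in the RefSeq table, and the lists were chosen with earlier results of these data known. The pollen gene LAT52 stood at 0 to 1.62 CPM in sterile and 0 to 22.0 CPM in fertile libraries and was not tested.

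Between genes, levels were compared per length, as RPKM (CPM divided by the coding length in kilobases). The coding sequences are of similar length, 735 bases for MC, 738 for FUL1, 744 for FUL2 and 753 for MBP20. MC was the most abundant at 131.5 ± 35.0 RPKM (mean ± SD, n = 17), with a lowest value of 77.9 and a highest of 207. FUL1 stood at 82.4 ± 28.4 RPKM (n = 17) and FUL2 at 66.0 ± 19.5 RPKM (n = 17). MBP20 was far lower, at 16.05 ± 16.6 RPKM (n = 17), and ran between 2.30 and 58.0. Among the 23455 genes with reads, these means lie at the percentiles 94.1, 90.4, 87.7 and 57.4 for MC, FUL1, FUL2 and MBP20.

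Within libraries the order was steady at its ends and not in its middle. MC exceeded FUL2 in 17 of 17 libraries and FUL1 in 16 of 17, the exception being fertile stage 2 replicate 1. FUL1 exceeded FUL2 in 13 of 17, and the 4 exceptions were sterile stage 2 replicate 3, sterile stage 3 replicate 3 and fertile stage 3 replicates 1 and 3. FUL1 and FUL2 thus changed places between libraries of stages 2 and 3, while FUL1 was the higher in all 5 libraries of stage 1. MBP20 was the lowest of the 4 in 17 of 17 libraries. The median per-length ratio was 1.67 for MC over FUL1, 1.85 for MC over FUL2, 1.27 for FUL1 over FUL2 and 5.87 for FUL2 over MBP20.

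**Figure D1:**
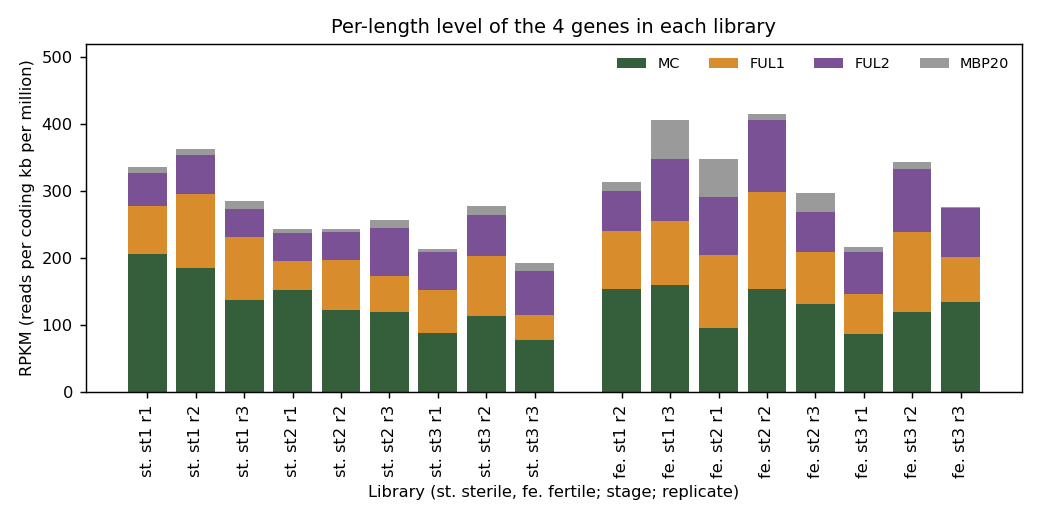
Per-length level (RPKM) of MC, FUL1, FUL2 and MBP20, stacked, in each of the 17 libraries, with the 9 sterile libraries left of the 8 fertile ones and stages in order. MC is the largest segment in 16 libraries, MBP20 the smallest in all 17, and the sum of the 4 genes runs from 193 to 416 RPKM.

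Summed over the 4 genes, sterile buds held 328 ± 39.1, 248 ± 7.22 and 228 ± 43.9 RPKM at stages 1, 2 and 3 (n = 3 each). Fertile buds held 360.0 ± 64.8 RPKM at stage 1 (n = 2), 354 ± 59.4 at stage 2 and 279 ± 63.9 at stage 3 (n = 3 each). The lines did not overlap at stage 2, where the highest sterile sum was 256 and the lowest fertile sum 297 RPKM, and they overlapped at stages 1 and 3. MC made up 53.5 ± 7.08%, 53.0 ± 8.40% and 40.7 ± 0.397% of the sum in sterile buds at stages 1, 2 and 3. In fertile buds its share was 44.2 ± 6.85%, 36.1 ± 8.37% and 41.2 ± 6.89%. At stage 2 every sterile share of MC, 46.4% or more, lay above every fertile share, 44.0% or less. With n = 2 or 3, groups can fail to overlap through the spread between libraries alone. The share of all tested genes whose groups did not overlap was not counted, here or for the single genes below.

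The comparison of the lines asks whether the clade is read differently in buds without fertile anthers. By edgeR's quasi-likelihood test, with Benjamini-Hochberg adjustment over 13568 genes and calls at an adjusted p under 0.05, 0 of the 4 genes were called at any stage or averaged over the stages, and DESeq2 also called 0. The same test called 1.16% of all tested genes at stage 1, 2.83% at stage 2, 0.737% at stage 3 and 9.74% averaged over stages. At an unadjusted p under 0.05, 1 of the 4 genes was lower in sterile buds at stage 1 (MBP20), 3 at stage 2 and 3 averaged over stages (FUL1, FUL2 and MBP20 in both), and 0 at stage 3. The share of all tested genes lower at that threshold was 7.07%, 9.16%, 12.8% and 6.29% at stage 1, at stage 2, averaged over stages and at stage 3. The median log2 difference of the 4 genes was -0.34, -0.86 and -0.33 at stages 1, 2 and 3 and -0.52 averaged over stages, against medians of -0.0022, 0.03, 0.02 and 0.02 over all tested genes.

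MC had similar levels in the lines, and averaged over the lines it fell from stage 1 to stage 3. In sterile buds its 3 replicates held 152, 136 and 101 CPM at stage 1, 112, 89.99 and 87.5 at stage 2, and 64.2, 83.6 and 57.2 at stage 3. In fertile buds it held 113 and 117 CPM at stage 1, 70.1, 113 and 96.2 at stage 2, and 63.9, 88.1 and 98.7 at stage 3. The lines overlapped at every stage. In both lines all stage 1 libraries lay above all stage 3 libraries, and the share of all tested genes that did the same was not counted. The log2 difference of sterile over fertile buds was 0.11 (SE 0.27, edgeR adjusted p = 0.960) at stage 1, 0.01 (SE 0.24, edgeR adjusted p = 0.993) at stage 2 and -0.32 (SE 0.25, edgeR adjusted p = 0.700) at stage 3. Averaged over stages it was -0.07, with an unadjusted 95% interval of -0.38 to 0.24, the narrowest of the 4 genes.

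From stage 1 to stage 3, averaged over the lines, MC fell by 0.58 on the log2 scale (SE 0.18, edgeR adjusted p = 0.0427), and it was the only one of the 4 genes called in that comparison. The background is large: of all tested genes 14.8% were called there, 6.84% falling and 7.92% rising, and 14.2% were lower at an unadjusted p under 0.05. DESeq2 also called MC and none of the other 3. Within sterile buds the difference of stage 3 over stage 1 was -0.79 (SE 0.25, edgeR adjusted p = 0.105), and within fertile buds -0.36 (SE 0.27, edgeR adjusted p = 0.504). The sterile difference passed only with the replicate number added to the fit within each line (-0.78, edgeR adjusted p = 0.0283). The labels do not say what libraries of the same number share. In sterile buds 2.06% of tested genes were called and in fertile buds 6.31%, and 0 of the 4 genes by edgeR and by DESeq2 in either; MC in sterile and MBP20 in fertile buds were lower at an unadjusted p under 0.05, as were 7.69% of tested genes in sterile and 10.9% in fertile buds. The call averaged over the lines rests on single libraries. It was lost, with edgeR adjusted p between 0.0505 and 0.126, when any one of 9 was left out: sterile stage 1 replicate 1 or 2, sterile stage 2 replicate 1, sterile stage 3 replicate 1 or 3, fertile stage 1 replicate 2 or 3, or fertile stage 3 replicate 1 or 2. Over all 17 such fits the log2 difference stayed between -0.65 and -0.49.

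Between consecutive stages 0 of the 4 genes were called by edgeR or by DESeq2 in either line. The background was low as well, with 0% of tested genes called by edgeR for stage 2 over 1 and for stage 3 over 2 in sterile buds, and 0.155% and 0.236% in fertile buds. MC was at -0.33 (SE 0.24) for stage 2 over 1 and -0.46 (SE 0.25) for stage 3 over 2 on the log2 scale in sterile buds. In fertile buds it was at -0.23 (SE 0.27) and -0.12 (SE 0.25). At an unadjusted p under 0.05, MBP20 for stage 3 over 2 in fertile buds was the 1 difference of the 16.

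FUL1 had its widest gap between the lines at stage 2, which did not pass over all genes. At stage 1 it held 52.4, 81.3 and 69.7 CPM in sterile and 64.0 and 70.5 CPM in fertile libraries. At stage 2 the sterile libraries held 32.3, 55.6 and 40.1 CPM, against 80.4, 107.6 and 57.4 in fertile ones. At stage 3 there were 47.7, 65.7 and 27.0 CPM in sterile and 43.5, 88.1 and 50.2 CPM in fertile libraries. Only at stage 2 did the lines not overlap, and there the highest sterile library, 55.6, lay just under the lowest fertile one, 57.4. The share of all tested genes without overlap at that stage was not counted. The log2 difference was -0.97 at stage 2 (SE 0.33, unadjusted 95% interval -1.65 to -0.28, edgeR adjusted p = 0.132). With the replicate number added to the fit it passed (-0.98, edgeR adjusted p = 0.0362). At stages 1 and 3 the log2 difference was -0.03 (SE 0.36, edgeR adjusted p = 0.996) and -0.41 (SE 0.34, edgeR adjusted p = 0.718), and averaged over stages -0.47 (SE 0.20, edgeR adjusted p = 0.153).

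Across stages FUL1 had no called difference. Stage 3 over stage 1, averaged over the lines, gave -0.25 on the log2 scale (SE 0.24, unadjusted 95% interval -0.76 to 0.27, edgeR adjusted p = 0.565). In sterile buds the means were 67.8 ± 14.5, 42.6 ± 11.9 and 46.8 ± 19.3 CPM at stages 1, 2 and 3 (n = 3 each). In fertile buds they were 67.2 ± 4.601 (n = 2), 81.8 ± 25.1 and 60.6 ± 24.0 CPM (n = 3 each). Stage 2 was the lowest mean in sterile and the highest in fertile buds, and a change of the line difference with stage did not pass for FUL1 (edgeR F-test over both interaction contrasts, unadjusted p = 0.177, adjusted p = 1).

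FUL2 had lower means in sterile than in fertile buds at all 3 stages, and at no stage did the difference pass. Its sterile libraries held 36.7, 43.3 and 30.8 CPM at stage 1, 30.6, 30.4 and 52.8 at stage 2, and 42.2, 45.8 and 49.3 at stage 3. Its fertile libraries held 44.0 and 68.8 CPM at stage 1, 64.9, 79.5 and 44.5 at stage 2, and 47.3, 70.1 and 53.7 at stage 3. The lines did not overlap at stage 1, by the small step between 43.3 and 44.0 CPM, and overlapped at stages 2 and 3. The log2 difference was -0.65 (SE 0.34, edgeR adjusted p = 0.570), -0.76 (SE 0.30, edgeR adjusted p = 0.218) and -0.33 (SE 0.31, edgeR adjusted p = 0.763) at stages 1, 2 and 3. At stage 1 it was -0.25 without fertile replicate 3.

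Averaged over stages FUL2 came closest to the threshold between the lines, at -0.58 on the log2 scale (SE 0.18, unadjusted 95% interval -0.96 to -0.19, edgeR adjusted p = 0.0545). This value passed, with edgeR adjusted p between 0.0126 and 0.0478, when any one of sterile stage 2 replicate 3, fertile stage 1 replicate 2, fertile stage 2 replicate 3 or fertile stage 3 replicate 1 was left out. Over the 17 fits without 1 library its edgeR adjusted p reached 0.210. With the replicate number added to the fit, FUL2 passed at -0.56 (edgeR adjusted p = 0.0477). With stage, FUL2 was the only one of the 4 genes with a positive difference of stage 3 over stage 1 averaged over the lines, 0.28 (SE 0.23, unadjusted 95% interval -0.20 to 0.77, edgeR adjusted p = 0.464).

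**Figure D2:**
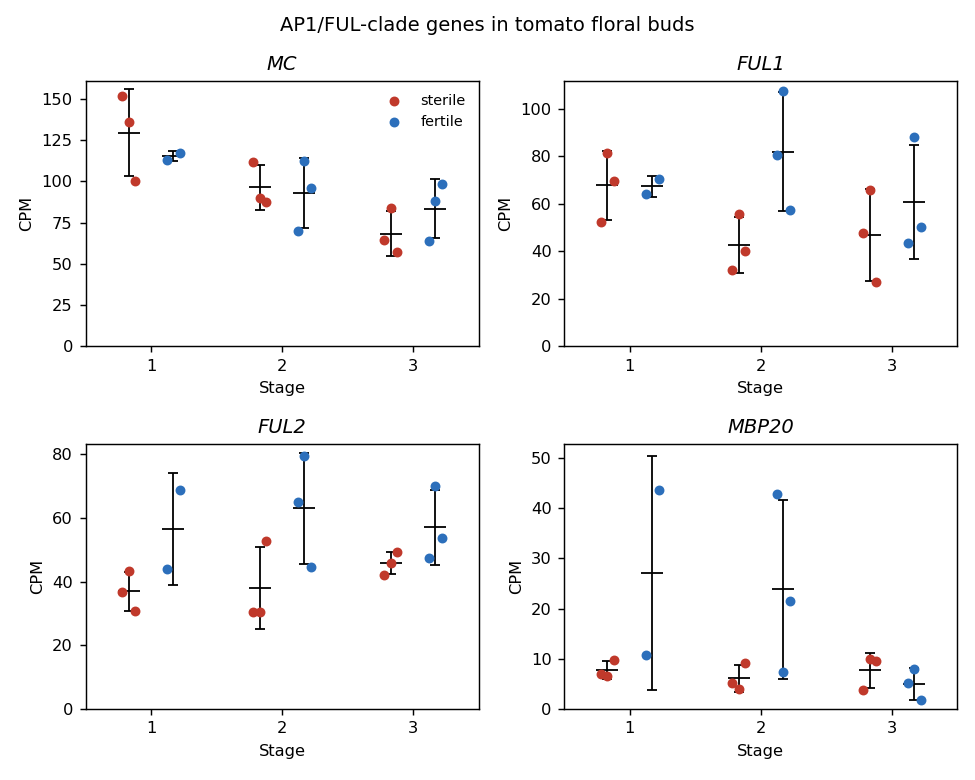
Level of MC, FUL1, FUL2 and MBP20 (CPM, each panel from 0) by stage, with sterile libraries in red left of fertile libraries in blue; points are libraries, the horizontal line is the group mean and the bars are 1 SD. MC has its lowest mean at stage 3 in both lines. MBP20 is high in 3 fertile libraries of stages 1 and 2, while every sterile library is under 10 CPM. FUL1 does not overlap between the lines at stage 2, by the step from 55.6 to 57.4 CPM, and the difference did not pass (edgeR adjusted p = 0.132). FUL2 and MBP20 do not overlap at stage 1.

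MBP20 had few reads in every sterile library and more in 3 fertile ones. The sterile libraries held 4, 5 and 6 reads at stage 1, 3, 3 and 5 at stage 2, and 2, 5 and 6 at stage 3. The fertile libraries held 8 and 26 reads at stage 1, 33, 6 and 15 at stage 2, and 4, 4 and 1 at stage 3. In CPM the 9 sterile libraries lay between 3.67 and 9.95, while fertile stage 1 replicate 3, stage 2 replicate 1 and stage 2 replicate 3 stood at 43.6, 42.8 and 21.5. The counting intervals (exact Clopper-Pearson, 95%) of these 3 run from 28.5 to 63.9, 29.5 to 60.1 and 12.1 to 35.5 CPM. That of the highest sterile library, 9.95 CPM, runs from 3.23 to 23.2 CPM. The other 5 fertile libraries, at 1.73 to 10.7 CPM, lay in or next to the sterile range.

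The group means of MBP20 were 7.76 ± 1.72, 6.06 ± 2.70 and 7.72 ± 3.51 CPM in sterile buds at stages 1, 2 and 3 (n = 3 each). In fertile buds they were 27.2 ± 23.3 (n = 2), 23.9 ± 17.9 and 4.95 ± 3.14 CPM (n = 3 each). The lines did not overlap at stage 1, by the small step between 9.73 CPM (6 reads) and 10.7 CPM (8 reads), and overlapped at stages 2 and 3. The counting intervals of the libraries on either side of that step overlap, at 3.57 to 21.2 and 4.60 to 21.0 CPM. The log2 difference of sterile over fertile buds was -1.82 (SE 0.72, edgeR adjusted p = 0.343) at stage 1, -2.02 (SE 0.69, edgeR adjusted p = 0.139) at stage 2 and 0.63 (SE 0.85, edgeR adjusted p = 0.851) at stage 3. Without fertile stage 1 replicate 3 the stage 1 difference was -0.46, and without fertile stage 2 replicate 1 the stage 2 difference was -1.29. With no filter on low counts the stage 2 difference passed, at -2.06 (edgeR adjusted p = 0.0442).

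In fertile buds the mean of MBP20 was lower at stage 3 than at stages 1 and 2, with log2 differences of -2.31 over stage 1 (SE 0.77, edgeR adjusted p = 0.0861) and -2.23 over stage 2 (SE 0.72, edgeR adjusted p = 0.274), neither of which passed. All 3 fertile stage 3 libraries lay under both stage 1 libraries, and they overlapped with those of stage 2. The difference over stage 1 passed with no filter on low counts (-2.30, edgeR adjusted p = 0.0383), and it was -0.95 without fertile stage 1 replicate 3. It also passed with the replicate number added to the fit within each line (-2.81, edgeR adjusted p = 0.0131). Of all tested genes 4.22% were lower at stage 3 than at stage 2 at an unadjusted p under 0.05, where MBP20 alone of the 4 was. In sterile buds stage 3 over stage 1 gave 0.14 (SE 0.78, edgeR adjusted p = 0.966). Of the 4 genes MBP20 had the smallest p for a line difference that changes with stage (edgeR F-test, unadjusted p = 0.0599, adjusted p = 1). In that test 0 of the 4 genes had an unadjusted p under 0.05, against 2.69% of all tested genes, and edgeR called 0% of tested genes after adjustment. DESeq2 also called 0 of the 4.

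**Figure D3:**
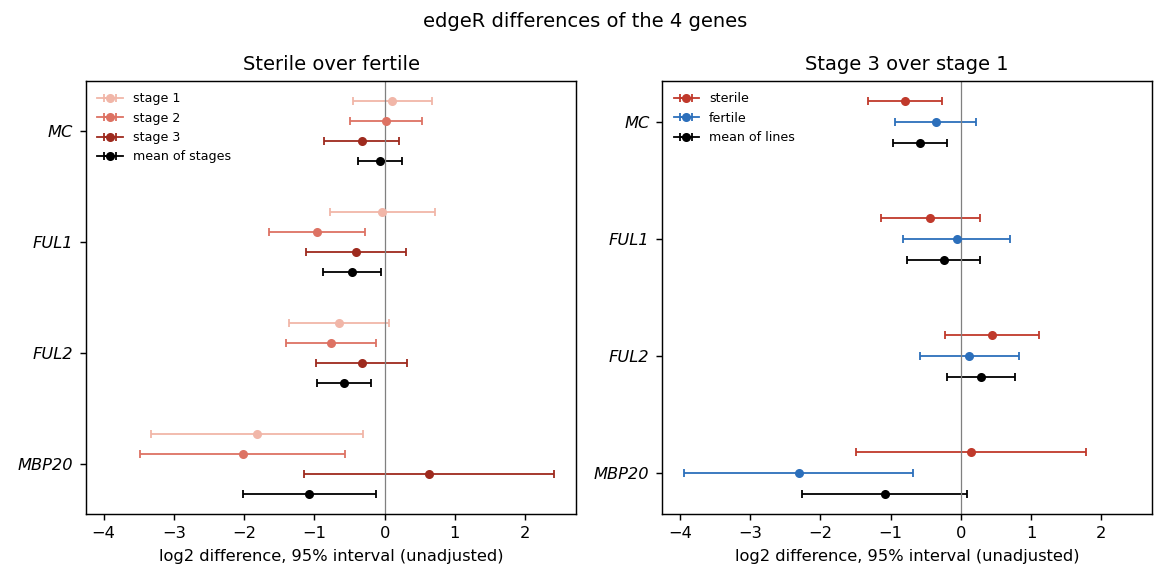
Log2 differences of MC, FUL1, FUL2 and MBP20 from edgeR with unadjusted 95% intervals, for sterile over fertile buds at each stage and averaged over stages (left) and for stage 3 over stage 1 in sterile buds, fertile buds and averaged over the lines (right). The averaged line differences of FUL1, FUL2 and MBP20 lie below 0 with intervals that miss 0 while that of MC spans it, and none of them passed adjustment over all genes.

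Of the 6 tapetum list genes, Solyc04g008420 is shown because it is among the genes whose pattern is most like that of MBP20, and it does not stand for the list. It had 0 reads in all 9 sterile libraries and in all 3 fertile libraries of stage 3. It had 7 and 58 reads in fertile stage 1 replicates 2 and 3, and 39, 2 and 39 in fertile stage 2 replicates 1, 2 and 3. Its 3 high libraries are the 3 in which MBP20 was high. Solyc08g062780 of the same list did not follow MBP20 at fertile stage 1. It held 516 CPM in replicate 2, where MBP20 held 10.7 CPM, and 416 CPM in replicate 3, where MBP20 held 43.6 CPM. At fertile stage 2 it held 429, 154 and 534 CPM in replicates 1, 2 and 3, where MBP20 held 42.8, 7.34 and 21.5 CPM. Both genes were thus lowest in replicate 2 there. The summed list did not follow the same order: it was 3001, 3550 and 11890 CPM in those 3 libraries, and 4531 CPM in fertile stage 3 replicate 3, where MBP20 had 1 read. Most of the sum at the later stages came from Solyc07g053460. Its mean was 13.3 CPM at fertile stage 1, 4330 of the summed 5900 CPM at stage 2 and 2356 of 2547 CPM at stage 3. Each other gene of the list had a lower mean at fertile stage 3 than at fertile stages 1 and 2. Of these, Solyc01g009590, Solyc03g053130 and Solyc03g113530 held 407, 223 and 26.7 CPM in fertile stage 1 replicate 2. In fertile stage 1 replicate 3 they held 1170, 1252 and 65.5 CPM. At fertile stage 2 each of them was lowest in replicate 2, at 89.3, 75.8 and 1.22 CPM, where MBP20 was lowest too. The part of the tapetum in the MBP20 values was not tested.

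**Figure D4:**
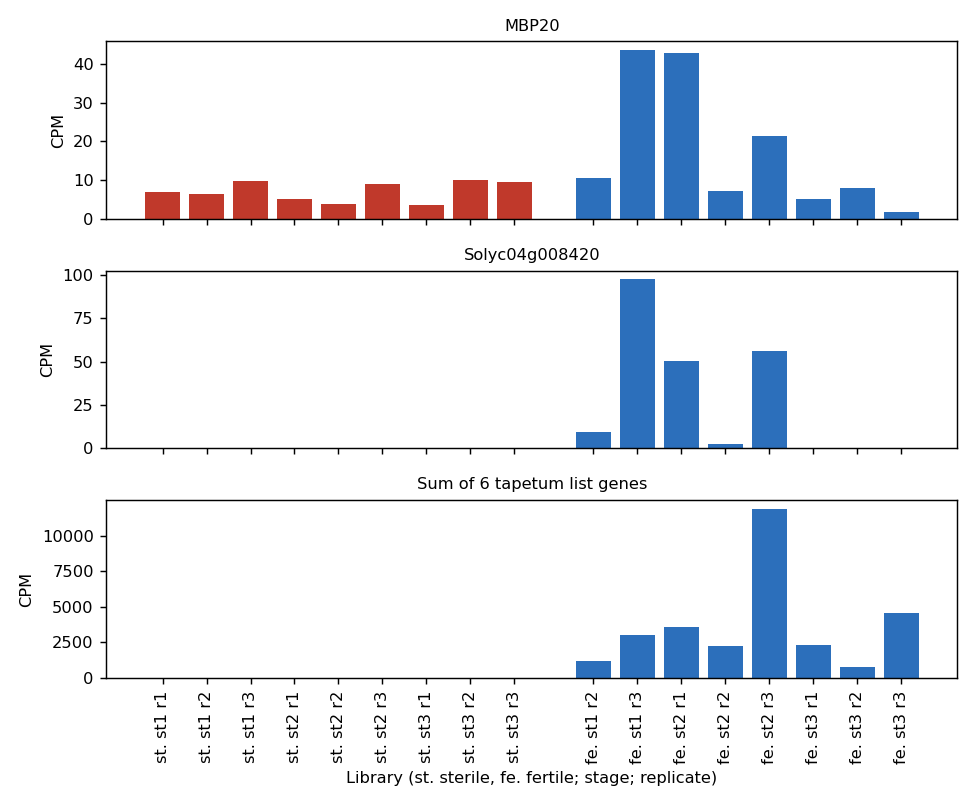
CPM in each library of MBP20 (top), Solyc04g008420 (middle) and the sum of the 6 tapetum list genes (bottom), with the 9 sterile libraries in red left of the 8 fertile ones in blue. MBP20 and Solyc04g008420 share their 3 highest libraries, fertile stage 1 replicate 3 and fertile stage 2 replicates 1 and 3, while the summed list is also high where MBP20 is low. At fertile stage 3 most of the sum came from Solyc07g053460, with a mean of 2356 of 2547 CPM.

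MBP10, the closest relative of MBP20, had 0 to 9 reads per library and fell below the filter on low counts, so it was not tested. Its reads were 3, 5 and 1 in sterile buds at stage 1, 3, 3 and 6 at stage 2, and 4, 2 and 0 at stage 3. In fertile buds they were 9 and 9 at stage 1, 6, 4 and 5 at stage 2, and 7, 0 and 1 at stage 3. Both fertile stage 1 libraries, at 11.998 and 15.1 CPM, lay above the 15 other libraries, of which the highest held 10.9 CPM. Their counting intervals, 5.49 to 22.8 and 6.91 to 28.7 CPM, overlap with that of this highest other library, 4.01 to 23.8 CPM. MBP10 was not high in the fertile stage 2 libraries in which MBP20 was high.

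Ratios of 2 genes within a library need no scaling between libraries and were tested by exact permutation of the libraries, two-sided, with 0.5 reads added to each count and p adjusted over the 6 pairs of the 4 genes. Between the lines, labels were permuted within stages. The log2 ratio of MC to FUL2 was 1.24 ± 0.645 in sterile and 0.681 ± 0.417 in fertile libraries (SD, n = 9 and 8), a difference of 0.51 averaged over stages (exact p = 0.0285, adjusted p = 0.171). The log2 ratio of MC to FUL1 was 0.909 ± 0.495 in sterile and 0.458 ± 0.437 in fertile libraries, a difference of 0.42 (exact permutation p = 0.10025, adjusted p = 0.301). That of FUL1 to FUL2 was 0.327 ± 0.647 in sterile and 0.223 ± 0.249 in fertile libraries, with a difference of 0.10 (exact permutation p = 0.671, adjusted p = 0.671). The 3 ratios to MBP20 had adjusted p of 0.395 to 0.671 by the same exact test. None of the 6 passed after adjustment.

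Between stages 3 and 1, labels were permuted within lines, which allows 200 relabelings. MC to FUL2 had a log2 ratio of 0.548 ± 0.274 at stage 3 and 1.49 ± 0.472 at stage 1 (SD, n = 6 and 5), a difference of -0.87 averaged over the lines (exact permutation p = 0.015, adjusted p = 0.09). The ratio of FUL1 to FUL2 was -0.00869 ± 0.478 at stage 3 and 0.626 ± 0.427 at stage 1, a difference of -0.58 (exact permutation p = 0.055, adjusted p = 0.11). FUL2 to MBP20 differed by 1.27 in the other direction (exact permutation p = 0.035, adjusted p = 0.105). Again 0 of 6 passed after adjustment, and 2 had an unadjusted exact p under 0.05. For the pair of MC and FUL2 the mean ratio was lower at stage 3, while MC reads outnumbered FUL2 reads in every library of both stages.

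**Figure D5:**
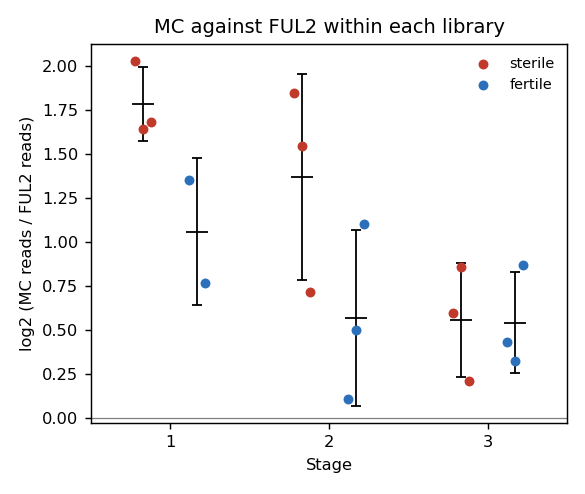
Log2 ratio of MC reads to FUL2 reads within each library, with 0.5 reads added to each count, by stage, with sterile libraries in red left of fertile ones in blue; the horizontal line is the group mean, the bars are 1 SD and the grey line at 0 marks equal reads. All 17 ratios are above 0, with a mean of 0.548 over the 6 libraries of stage 3 and 1.49 over the 5 of stage 1.

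MC, FUL2 and MBP20 each stand beside another MADS-box gene of the SEPALLATA type in the annotation. MC stands beside RIN (Solyc05g012020), the ripening regulator, and RefSeq also lists there a fused MADS-RIN-MADS-MC gene, as known from the rin mutant of tomato. RIN had 0 to 2 reads in each of the 17 libraries, too few to be tested. FUL2 stands beside MADS1 (Solyc03g114840), which held 15.6 to 50.0 CPM and was not called between the lines averaged over stages (log2 difference -0.18, SE 0.23, edgeR adjusted p = 0.684). MBP20 stands beside TM29 (Solyc02g089200), a SEPALLATA gene of the floral organs.

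TM29 was called in comparisons in which its neighbour MBP20 was not. It held 192 to 437 CPM in sterile and 252 to 764 CPM in fertile libraries. TM29 was lower in sterile buds averaged over stages, at -0.64 on the log2 scale (SE 0.15, edgeR adjusted p = 0.0130) and rose from stage 1 to stage 3 by 1.08 averaged over the lines (SE 0.20, edgeR adjusted p = 0.00191). MBP20 was at -1.07 (SE 0.45, edgeR adjusted p = 0.155) and -1.08 (SE 0.56, edgeR adjusted p = 0.214) in the same comparisons, and at -0.62 and -0.42 without fertile stage 1 replicate 3. The difference between these neighbours was not tested. FUL1 has no MADS-box gene of the lists directly beside it.

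Genes that work with the clade were described through lists, in the line comparison averaged over stages and in stage 3 over stage 1 averaged over the lines. Of 6 SEPALLATA-type genes, which supply partners in MADS complexes, 5 were tested. Lower in sterile buds were 2, TM29 and TM5 (Solyc05g015750; log2 difference -0.62, SE 0.14, edgeR adjusted p = 0.0100), and 0 were higher. The list median was -0.21 against 0.02 over all tested genes, of which 6.25% were lower and 3.49% higher. From stage 1 to stage 3, TM29 and TM5 (0.74, SE 0.18, edgeR adjusted p = 0.0114) rose, while Solyc04g005320 fell by 1.15 (SE 0.36, edgeR adjusted p = 0.0391), as MC did. The list median was 0.38 over stages, against -0.01 over all tested genes.

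Of 9 floral organ identity genes 8 were tested, and 3 were lower in sterile buds. The petal and stamen gene TAP3 (Solyc04g081000) differed by -1.02 on the log2 scale (SE 0.23, edgeR adjusted p = 0.00994), Solyc08g067230 by -0.999 (SE 0.17, edgeR adjusted p = 0.00105) and the stamen and carpel gene TAG1 (Solyc02g071730) by -0.89 (SE 0.16, edgeR adjusted p = 0.00154). The list median was -0.55, close to the -0.52 of the 4 clade genes. From stage 1 to stage 3, 4 of the 8 rose and 0 fell. They were TAP3 (1.70), Solyc08g067230 (1.48), TAG1 (1.24) and the petal and stamen gene TPI (Solyc06g059970, 1.16, edgeR adjusted p = 0.0264), where MC fell. The list median was 0.90 over stages and that of the 4 clade genes -0.41.

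Among 8 inflorescence and meristem genes 3 were tested, and 1 was higher in sterile buds. This was S (Solyc02g077390), the COMPOUND INFLORESCENCE gene that acts on branching, at 15.6 ± 14.7, 14.5 ± 9.36 and 16.2 ± 1.63 CPM in sterile buds at stages 1, 2 and 3 (n = 3 each). In fertile buds it stood at 11.2 ± 0.767 (n = 2), 4.80 ± 0.449 and 0.667 ± 1.16 CPM (n = 3 each), and the log2 difference averaged over stages was 2.14 (SE 0.49, edgeR adjusted p = 0.00926). The list median was 0.26. Over stages 0 of the 3 were called by edgeR or by DESeq2: WUS (Solyc02g083950), the stem cell gene, stood at 1.16 (SE 0.49, edgeR adjusted p = 0.127) and S at -1.84 (SE 0.66, edgeR adjusted p = 0.0710). Both had an unadjusted p under 0.05.

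Of 5 genes of the pedicel abscission zone 3 were tested, and J (JOINTLESS, Solyc11g010570), whose protein forms a complex with that of MC, was lower in sterile buds. J held 21 reads in the 9 sterile and 64 in the 8 fertile libraries, and the log2 difference averaged over stages was -1.64 (SE 0.48, edgeR adjusted p = 0.0388). Solyc12g038510, a further partner in that zone and also on the SEPALLATA list, stood at -0.21 (SE 0.30, edgeR adjusted p = 0.732). The list median was -0.25. From stage 1 to stage 3, 0 of the 3 were called by edgeR or by DESeq2, and 2 had an unadjusted p under 0.05. Solyc12g038510 stood at -1.10 (SE 0.37, edgeR adjusted p = 0.0527) and J at -0.12 (SE 0.61, edgeR adjusted p = 0.940).

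Of 8 ripening genes, where FUL1 and FUL2 have their best known role, 4 were tested. By edgeR 1 was lower in sterile buds averaged over stages, Solyc09g089580 (log2 difference -2.01, SE 0.40, edgeR adjusted p = 0.00401), and DESeq2 called 2 lower, this gene and NOR (Solyc10g006880), a ripening transcription factor gene. NOR had 0 reads in both lines at stage 1, so edgeR gave no usable estimate averaged over stages, but it called NOR lower in sterile buds at stage 2 (0 reads in sterile and 92 in fertile buds, edgeR adjusted p = 0.00790) and at stage 3 (10 reads in sterile and 184 in fertile buds, edgeR adjusted p = 0.0229). From stage 1 to stage 3, 2 rose: PSY1 (Solyc03g031860), a carotenoid synthesis gene, by 1.31 (SE 0.41, edgeR adjusted p = 0.0392), and NOR (edgeR adjusted p = 0.00254). At stage 3 PSY1 varied widely, from 88.2 to 570 CPM in fertile and from 50.9 to 165 CPM in sterile libraries. FUL1 and FUL2 had reads in every library. Both petal carotenoid genes were lower in sterile buds, CrtR-b2 (Solyc03g007960) by -2.16 (SE 0.63, edgeR adjusted p = 0.0379) and ChrC (Solyc02g081170) by -1.49 (SE 0.36, edgeR adjusted p = 0.0127) on the log2 scale, and both rose with stage. Of 10 green tissue genes 0 were called by edgeR or by DESeq2 in either comparison, with 3 at an unadjusted p under 0.05 between the lines and 0 between the stages, and medians of 0.46 and 0.38. The 2 with the highest level, Solyc03g005760 and RBCS3 (Solyc02g085950), stood at 0.41 (edgeR adjusted p = 0.297) and 0.23 (edgeR adjusted p = 0.679) between the lines. The summed level of the 10 ran from 8560 to 25815 CPM in sterile and from 9702 to 15801 CPM in fertile libraries.

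Across the 17 libraries the 4 genes varied with each other only loosely. Pearson's r of log2(CPM + 1) was 0.46 between FUL1 and FUL2, 0.39 between FUL1 and MC and 0.39 between FUL2 and MBP20, and -0.14 between MC and FUL2. With the mean of each line and stage removed, these were 0.38, 0.27, 0.28 and 0.15. For the pairs not yet given, MC and MBP20 had 0.01 over all libraries and -0.42 with group means removed, and FUL1 and MBP20 had 0.32 and -0.04. FUL2 and TM29 had a higher value, 0.60, than any pair of the 4, and 0.37 with group means removed. These values share libraries, depth and stages and are given as a description.

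Each of the 4 genes was compared with 12938 other tested genes that averaged 10 CPM or more. Those most like it over the 17 libraries were found by the same r. For MC they were Solyc05g053220 (0.868), Solyc11g065730 (0.852) and Solyc12g008940 (0.815). For FUL1 they were Solyc01g096100 (0.88), Solyc02g062960 (0.86) and Solyc11g008580 (0.83). For FUL2 they were Solyc08g044260 (0.85), Solyc03g005270 (0.84) and Solyc01g010430 (0.83). For MBP20 they were Solyc02g084850 (0.85), Solyc04g008420 of the tapetum list (0.84) and Solyc07g065780 (0.84). No gene was among the nearest of more than 1 of the 4, and none was on the SEPALLATA, organ identity or ripening lists.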

How the data were processed

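Buds of 2 tomato lines at 3 stages gave 17 libraries. The deposited files hold, per the file headers, whole-number counts of unique and total reads per gene model, the RPKM of each gene and its length. How the authors aligned and counted the reads, on which genome build and with which strand setting, is not given in the sources used here. Gene lengths are multiples of 3 for 34726 of 34727 models and are thus coding lengths, and the deposited RPKM matched the values recomputed from total reads within a relative 1e-06.

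Total reads were tested with edgeR 4.0.16 (quasi-likelihood, TMM, its default expression filter leaving 13568 genes) in R 4.3.3. All 17 libraries entered 1 fit with 1 coefficient per line and stage and 11 residual degrees of freedom. DESeq2 1.42.0 was an alternative, with other filters, scalings, replicate blocks and left-out libraries. Within-library ratios were tested by exact permutation. Scripts were tested on simulated data. Each library is 1 replicate by its label, and since nothing says that they come from separate plants, p-values measure only the spread between these libraries. Depth was 499608 to 817548 reads, and counting intervals cover counting error only.

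The named genes are the 4 clade members, MBP10, neighbouring MADS-box genes, up to 4 called or leading genes of each list and the 3 most like each member. The members and lists were chosen with earlier results of these data known. Of 53 list genes 33 have a name that RefSeq (SLM_r2.1) places at a like position, and the others are given by identifier.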

Additional observations from a re-analysis of the deposited data

How the results depend on the processing

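None of the 4 genes was called between the lines in the reported fit, and some alternatives called 1. At stage 2 the number was 1 with no filter on low counts (MBP20), 1 with the replicate block (FUL1, -0.98, edgeR adjusted p = 0.0362) and 1 without all libraries numbered 3 (FUL2, -1.35, edgeR adjusted p = 0.0388). Averaged over stages it was 1 with the replicate block (FUL2, -0.56, edgeR adjusted p = 0.0477) and 0 to 1 when 1 library was left out. For stage 3 over 1 it was 1 in sterile buds with the replicate block within line (MC, -0.78, edgeR adjusted p = 0.0283), and 1 in fertile buds with that block (MBP20, -2.81, edgeR adjusted p = 0.0131) or with no filter (MBP20). Averaged over the lines it was 0 with no filter (MC -0.57, edgeR adjusted p = 0.0920), 0 without all libraries numbered 3 (MC -0.64, edgeR adjusted p = 0.140), and 0 to 1 when 1 library was left out. The causes were not tested.

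Of same-numbered libraries of the 2 lines, 3 of 8 pairs had a correlation of deviations over 0.1 (median 0.0752), and these were the 3 pairs numbered 3 (0.220, 0.150 and 0.247), while within a line 13 of 16 pairs of stages did (median 0.301), and 16 of 17 libraries correlated best with their own number within their line. The labels state no shared plant, batch or day behind a number, so the pairing is a hint from the data only. The block raised the genes called from 384 to 732 at stage 2 and, within line, from 280 to 1037 in sterile and from 856 to 1762 in fertile buds for stage 3 over 1.

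Signs reversed for values that were not called. Under the replicate block FUL1 was 0.044 between the lines at stage 1 and 0.0070 for stage 3 over 1 in fertile buds, and 0.0032 there with the block within line. With no filter MC was -0.025 between the lines at stage 2. Without all libraries numbered 3, FUL1 was 0.045 between the lines at stage 1, 0.158 for stage 3 over 1 in fertile buds and 0.013 averaged over the lines. In those fits MC was 0.085 between the lines averaged over stages, FUL2 was -0.36 for stage 2 over 1 in sterile buds, MBP20 was 1.33 for stage 2 over 1 in fertile buds, and the ratio of MC to MBP20 was -0.40 for stage 3 over 1.

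Leaving out 1 library gave ranges that span 0. Between the lines MC ran from -0.012 to 0.25 at stage 1 and from -0.16 to 0.15 at stage 2, and FUL1 from -0.17 to 0.12 at stage 1. In sterile buds stage 2 over 1 ran from -0.26 to 0.33 for FUL2 and from -0.74 to 0.021 for MBP20, stage 3 over 2 from -0.13 to 0.38 for FUL1, and stage 3 over 1 from -0.13 to 0.46 for MBP20. In fertile buds stage 2 over 1 ran from -0.081 to 0.64 for FUL2 and from -0.82 to 1.27 for MBP20, and stage 3 over 2 from -0.30 to 0.051 for MC and from -0.29 to 0.055 for FUL2. There stage 3 over 1 ran from -0.40 to 0.15 for FUL1 and from -0.20 to 0.52 for FUL2. The ratio of FUL1 to FUL2 between the lines ran from -0.016 to 0.23 and that of MC to MBP20 over stages from -0.077 to 0.88.

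Of the values recomputed under all alternatives, 1655 stayed the same. For differences and ratios this means the same direction and side of the threshold, and for counts of called genes and levels a close value. Signs reversed in 36, 11 came to pass, 11 no longer passed, and 23 counts or levels moved. MBP20 fell below the filter when only the libraries of 1 stage, or only the sterile ones, were fitted. Over all genes, DESeq2 called 234, 480 and 179 between the lines at stages 1, 2 and 3 where edgeR called 158, 384 and 100. The number called for stage 3 over 1 in fertile buds was 83 at the lowest when 1 library was left out (fertile stage 1 replicate 3), and in sterile buds 18 (sterile stage 1 replicate 2). In fertile buds it was 28 without all libraries numbered 3. Depth limits MBP20 and MBP10 most, since 1 read is worth 1.22 to 2.00 CPM.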
